A study of Mus musculus with 16 samples.

Results

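Interferon-stimulated genes are the transcripts that a cell switches on when an interferon binds its receptor. The 39 described here were picked by symbol out of the 24982 gene entries of a count table from mouse dorsal root ganglia, and all 39 were among the 15507 genes with enough reads to test. Of these, 7 are immunity-related GTPases and guanylate-binding proteins, which respond mainly to interferon-gamma (Iigp1, Igtp, Irgm1, Irgm2, Gbp2, Gbp3 and Gbp7). A further 6 are classical type I interferon genes of the Ifit and Oas families with Isg15. The other 26 are 4 transcription factors, 4 sensors of foreign nucleic acid, 5 genes of the ubiquitin and ADP-ribose pathways and 13 further effectors.

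The study read ganglia on the injected side at the levels L4 to L6 of C57BL/6 mice, aged 10 to 12 weeks, after an injection into the ankle joint. The 4 groups follow from the sample titles. They are TrkA/C knock-in mice given complete Freund's adjuvant (KI CFA), knock-in mice given vehicle (KI saline), wild-type mice given complete Freund's adjuvant (WT CFA) and wild-type mice given vehicle (WT saline). The titles call the adjuvant groups MoAr and the vehicle groups Saline, and tissue was taken 14 days after the injection. Complete Freund's adjuvant is an oil suspension of killed mycobacteria that causes a lasting inflammation of the joint. The labels name the knock-in without describing the construct, and every library pooled 6 ganglia of 2 mice, so the values are those of pools and not of single animals. Each group had 4 libraries. For WT CFA 1 the genotype tag reads knock-in while the title reads WT, and the title was followed. Its Ntrk3 (TrkC) level was 48.4 CPM, below the 99.1 to 138 CPM of the KI libraries and inside the 29.3 to 61.4 CPM of the WT libraries.

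Library totals ran from 22742209 to 40910947 counts. Expression is given as TMM-normalised CPM, the reads of a gene out of each 1e6 reads of the scaled library, and a count of 3 was worth 0.0733 CPM in the deepest library and 0.132 CPM in the shallowest. All 9 sensory neuron markers were detected in every library, with a summed level of 11800 to 13980 CPM, so the labelled tissue was borne out. In whole ganglia, more cells of a type and more RNA per cell cannot be told apart.

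Interferons work through paired receptors and the Jak kinases. Type I interferons lead to a complex of Stat2, Irf9 and a further Stat protein, which binds the interferon-stimulated response element (ISRE) in front of Ifit, Oas and Isg15 genes. Interferon-gamma leads to Stat dimers that bind the gamma-activated site (GAS), and to Irf1, which also binds the ISRE. The immunity-related GTPases and guanylate-binding proteins attack the vacuoles of intracellular parasites and bacteria. Ifit and Oas proteins act on viral RNA, and Isg15 is a ubiquitin-like tag that Usp18 removes.

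The stretches in front of the start sites of 7 members are shown because the results below turn on these genes and because they differ in which of the elements they hold. They come from RefSeq promoters on build GRCm38.p6 and cover the 160 bases before the start, written 5′ to 3′ on the strand of the gene. Capitals mark matches to the ISRE, searched as GAAA, any 2 bases and GAAA again, or on the other strand TTTC, any 2 bases and TTTC, and to the GAS, searched as TTCNNNGAA, which reads the same on both strands. Positions are chr11:58199396-58199555 (plus strand) for Igtp, chr11:58214817-58214976 (plus) for Irgm2, chr3:142530176-142530335 (plus) for Gbp7, chr19:34640729-34640888 (plus) for Ifit1, chr19:34583369-34583528 (plus) for Ifit3, chr4:156200819-156200978 (minus) for Isg15 and chr5:114896774-114896933 (plus) for Oasl2.
Igtp: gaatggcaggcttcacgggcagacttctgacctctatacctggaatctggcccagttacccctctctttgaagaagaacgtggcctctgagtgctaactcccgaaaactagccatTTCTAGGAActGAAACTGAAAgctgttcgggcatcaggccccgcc
Irgm2: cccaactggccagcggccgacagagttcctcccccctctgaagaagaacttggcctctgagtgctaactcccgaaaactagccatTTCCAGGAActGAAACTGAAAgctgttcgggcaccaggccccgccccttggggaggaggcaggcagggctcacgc
Gbp7: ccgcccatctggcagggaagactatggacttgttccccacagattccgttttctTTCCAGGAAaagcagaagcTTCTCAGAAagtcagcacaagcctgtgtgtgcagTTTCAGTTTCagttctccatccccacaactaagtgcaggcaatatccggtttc
Ifit1: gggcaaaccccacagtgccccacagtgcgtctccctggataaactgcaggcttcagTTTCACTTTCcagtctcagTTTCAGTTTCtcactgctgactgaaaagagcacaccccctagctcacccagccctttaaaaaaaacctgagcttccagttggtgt
Ifit3: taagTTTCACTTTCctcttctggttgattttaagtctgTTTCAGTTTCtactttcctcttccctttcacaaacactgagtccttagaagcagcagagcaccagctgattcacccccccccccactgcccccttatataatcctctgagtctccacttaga
Isg15: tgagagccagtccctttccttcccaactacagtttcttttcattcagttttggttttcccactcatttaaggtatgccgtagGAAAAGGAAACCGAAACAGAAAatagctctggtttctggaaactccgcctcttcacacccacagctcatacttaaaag
Oasl2: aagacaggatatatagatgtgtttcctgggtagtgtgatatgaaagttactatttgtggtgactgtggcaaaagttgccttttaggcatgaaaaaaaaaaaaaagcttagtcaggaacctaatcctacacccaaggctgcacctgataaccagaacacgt

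Igtp and Irgm2 are neighbours on chromosome 11, and both hold a GAS match followed by an ISRE match. In Igtp the matches began 45 and 34 bases before the start, and in Irgm2 they began 75 and 64 bases before it. Gbp7 had 2 GAS matches and 1 ISRE match. Ifit1 and Ifit3 had 2 separate ISRE matches each, and Isg15 had 3 that overlap one another. The window of Oasl2 held neither run of letters. Overlapping ISRE matches also lay in Gbp3, Irgm1, Bst2 and Oas1a, and in Bst2 the GAS match overlapped an ISRE match.

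Of the 39 members, 29 had a promoter in the RefSeq table, counted over 250 bases before to 50 after the start. The ISRE letters stood in 17 of these 29 (58.6%), against 1079 of 27025 genes (3.99%). All 6 Irg and Gbp members in the table had one, and so did 4 of the 6 Ifit, Oas and Isg15 members. The GAS letters stood in 9 of 29 members (31.0%), against 9.55% of all genes. Both motifs together stood in 6 members (20.7%), against 0.54% of all genes. A match describes the sequence and is not a measured binding site.

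Levels were compared between genes only per kilobase of exon, as group means of CPM per kilobase. In WT saline, Ifi27l2a stood highest at 15.6, followed by Stat2 at 11.7 and Bst2 at 10.5. Igtp (9.31), Oasl2 (8.31) and Ifit2 (8.15) followed within the upper 9 of the 39. The lowest were Ifi44 (0.251), Zbp1 (0.191) and Mx1 (0.133), and Mx1 had 4 to 81 reads in a library, so its values are the least precise. Iigp1 stood at 0.487 in WT saline and was also among the lowest.

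**Figure D1:**
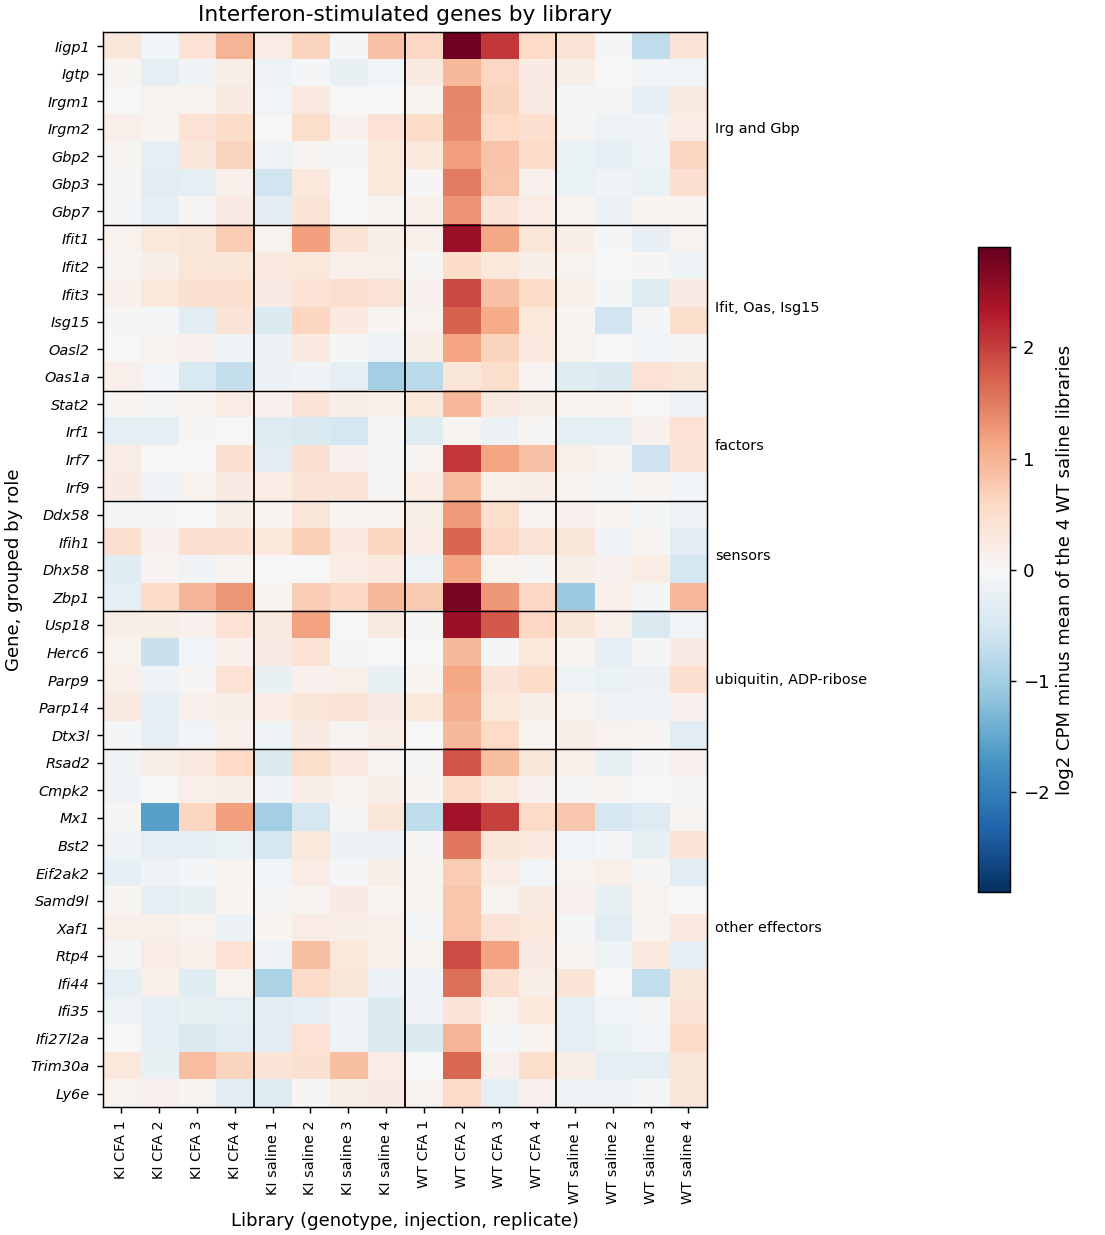
Each cell shows 1 of the 39 genes (down) in 1 of the 16 libraries (across) as log2 CPM (prior count 2) minus the mean of the 4 WT saline libraries, so red is above that mean and blue below it; genes are grouped by role. The column of WT CFA 2 is the reddest in nearly every row, with a median of 1.20, and WT CFA 3 follows with a median of 0.51.

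The members were high together in a few libraries. WT CFA 2 held the highest level of all 16 libraries in 36 of the 39 members, while 6.01% of all tested genes were highest there. The exceptions were Oas1a, highest in WT CFA 3, and Irf1 and Ifi35, highest in WT saline 4. Relative to the WT saline mean, the median member stood 1.20 higher on the log2 CPM scale in WT CFA 2 and 0.51 higher in WT CFA 3. It stood 0.26 higher in WT CFA 4 and 0.06 higher in WT CFA 1. Among the KI libraries this median ran from -0.13 in KI saline 1 to 0.35 in KI saline 2. The median over all tested genes lay between -0.01 and 0.01 in every library, which the TMM scaling itself brings about.

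The second place went to WT CFA 3. Within the WT CFA group, WT CFA 2 was first and WT CFA 3 second in 27 of 39 members, against 6.1% of all genes. They were first and second of all 16 libraries in 19 of 39 members, against 0.761% of all genes. A level at least 1 above the WT saline mean on the log2 scale was reached by 24 members in WT CFA 2, against 1.03% of all genes, and by 8 members in WT CFA 3, against 1.19%. Of the 159 genes past that mark in WT CFA 2, 24 were members and 21 stood on a list of 60 other interferon-stimulated genes, of which 52 were tested. Of the 184 genes past it in WT CFA 3, 8 were members and 10 stood on that list.

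The height of WT CFA 2 varied between the roles. Its median over WT saline was 1.45 for the sensors, 1.43 for Ifit, Oas and Isg15, 1.39 for Irg and Gbp, 1.02 for the ubiquitin and ADP-ribose genes, 0.99 for the other effectors and 0.94 for the factors. In WT CFA 3 the same medians were 0.55, 0.75, 0.65, 0.37, 0.31 and 0.21. In both libraries the gamma-type and type I members therefore stood at similar heights, and no test of a difference between these role groups was made.

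Other cell types were read in the same libraries from fixed marker lists. The summed level of 12 macrophage markers was 65.2 CPM in WT CFA 2 and 46.0 CPM in WT CFA 3, within the 37.3 to 79.9 CPM of the other 14 libraries. By group it ran from 37.3 to 58.5 CPM in KI CFA, 45.7 to 66.3 in KI saline, 46.0 to 67.3 in WT CFA and 50.1 to 79.9 in WT saline. The 9 T cell markers in the table summed to 4.42 CPM in WT CFA 2 and to 2.25 CPM in WT CFA 3, where Cd3g, Cd2 and Cd5 had no reads, against 2.56 to 4.48 CPM in the other libraries. Their sums ran from 2.56 to 3.66 CPM in KI CFA, 2.56 to 4.48 in KI saline, 2.25 to 4.42 in WT CFA and 3.25 to 3.92 in WT saline. The 8 NK cell markers summed to at most 1.18 CPM anywhere. The 9 neutrophil markers reached 282 CPM in a KI CFA library and were at 11.2 and 8.13 CPM in WT CFA 2 and 3. The 11 skeletal muscle markers reached 1021 CPM in a KI saline library and stood at 6.01 and 5.81 CPM in WT CFA 2 and 3, below the 6.51 CPM of the lowest other library. WT CFA 3 was also below all other libraries in the summed Schwann cell (3480 CPM, others from 3664), endothelium (61.2 CPM, others from 70.5), fibroblast (298 CPM, others from 361), T cell, B cell (1.64 CPM, others from 1.70) and erythroid markers (0.321 CPM, others from 0.509). WT CFA 2 lay within the range of the other libraries in each of these lists. The part of these cell types in the levels of the members was not tested.

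Interferon transcripts themselves were almost absent from the counts. Of 10 ligand genes in the list, 3 had any read, with 15 reads in all libraries together. Ifng, the gene of interferon-gamma, had 1 read in each of WT CFA 2, WT CFA 4, WT saline 2 and WT saline 4. Ifnb1, a type I interferon, had 1 read in KI CFA 4. Ifnl2, an interferon-lambda, had 10 reads, of which 6 lay in WT saline 4. WT CFA 3 had no ligand read. At this depth no difference in ligand expression was detectable.

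The comparison of KI CFA with WT CFA set the genotypes side by side in arthritic mice. Igtp and Oasl2 fell in KI CFA, and none of the 39 members rose. The share that fell, 2 of 39, stands beside 1.75% of all 15507 genes called as falls by the same test (edgeR, Benjamini-Hochberg adjusted p under 0.05 over all genes). All 39 fold changes lay below 0 and 28 had an unadjusted p under 0.05, against 12.7% of all genes in either direction. The median log2 fold change was -0.49 for the 39 members, -0.58 for Irg and Gbp and -0.63 for Ifit, Oas and Isg15, beside 0.00 for all genes. These values depend on WT CFA 2. Without it the median of the members was -0.22, 35 of 39 lay below 0 and none was called. Without WT CFA 3 the median was -0.55, all 39 lay below 0 and none was called.

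WT CFA 2 and WT CFA 3 ranked first and second of the WT CFA group in 27 of 39 members. Leaving them out therefore lowers the WT CFA levels by construction. With both left out, a contrast of 4 KI CFA libraries with 2 WT CFA libraries remained. Here 29 members lay below 0 and 10 above, with a median of -0.11, and 5.13% of the members had an unadjusted p under 0.05, against 8% of all genes. All 7 Irg and Gbp members stayed below 0, with a median of -0.18 and values from -0.26 to -0.04. Of the 6 Ifit, Oas and Isg15 members, 3 lay above 0 and 3 below, with a median of 0.02. No member was called, and whether the role groups differ was not tested.

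**Figure D2:**
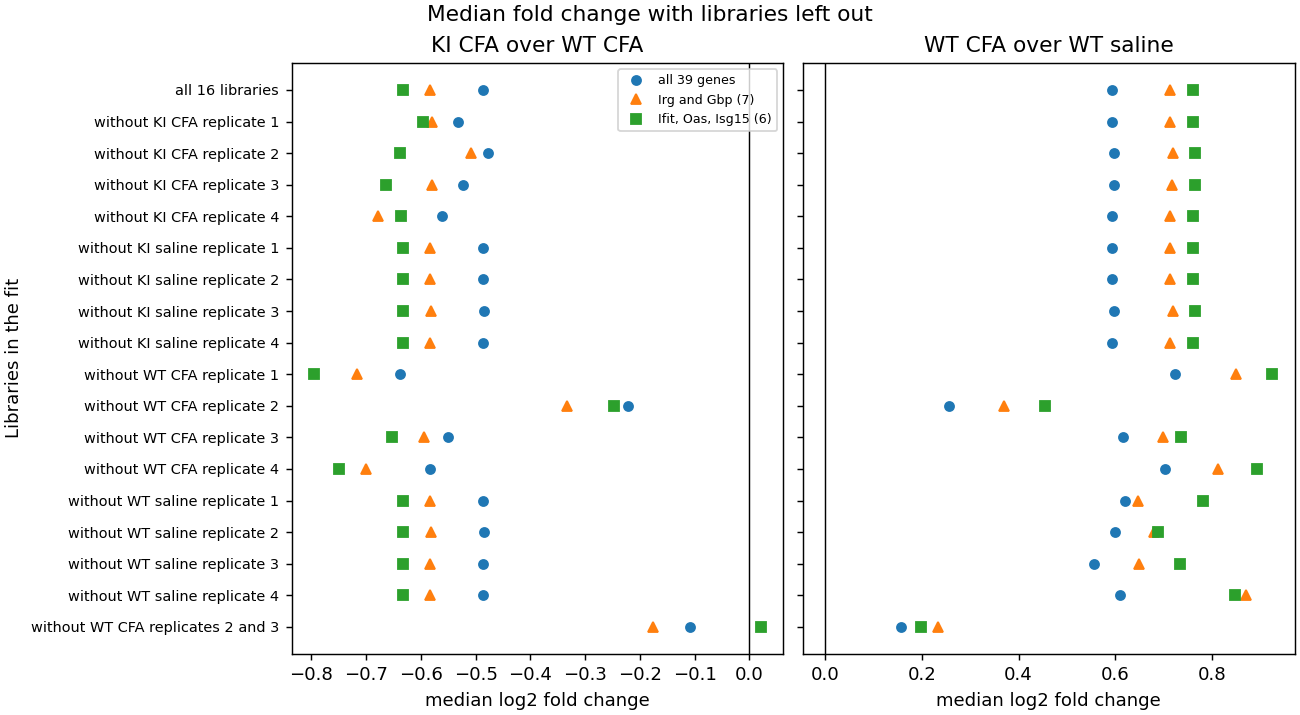
Median log2 fold change (edgeR) of all 39 genes (circles), the 7 Irg and Gbp genes (triangles) and the 6 Ifit, Oas and Isg15 genes (squares) in KI CFA over WT CFA (left) and WT CFA over WT saline (right), for all libraries and for fits without the libraries named. On the left the medians of all 39 genes move to -0.22 without WT CFA 2 and to -0.11 without WT CFA 2 and 3, and on the right to 0.26 and 0.16. WT CFA 2 stood first and WT CFA 3 second of their group in 27 of 39 members. Leaving out WT CFA 2, or both, therefore moves the medians towards 0 by construction. Without WT CFA 3 alone the medians of all 39 genes were -0.55 on the left and 0.62 on the right. With all libraries they were -0.49 and 0.59.

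The comparison of WT CFA with WT saline asked what joint inflammation does in the wild type. No member was called by edgeR, as was no gene at all (0% of 15507), although 38 of 39 fold changes lay above 0 and 30 members had an unadjusted p under 0.05, against 6.96% of all genes in either direction. The median log2 fold change was 0.59 for the members, 0.71 for Irg and Gbp and 0.76 for Ifit, Oas and Isg15, beside -0.01 for all genes. DESeq2 called 3 members, Igtp (0.54), Irgm2 (0.80) and Usp18 (1.53), among 24 genes, and limma-voom called no member and 1 gene. Without WT CFA 2 the median of the members was 0.26, and without WT CFA 2 and 3 it was 0.16 with 32 of 39 above 0.

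WT CFA stands in both of these comparisons, so their values are not independent of each other. Every WT CFA library lay above every WT saline library in 8 of 39 members, against 1.53% of all genes. These were Iigp1, Igtp, Irgm2, Gbp7, Oasl2, Stat2, Irf9 and Parp14, so WT CFA 1 and 4 were also above WT saline in them. Every KI CFA library lay below every WT CFA library in 4 members (Igtp, Oasl2, Bst2 and Ifi35), against 4.44% of all genes.

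**Figure D3:**
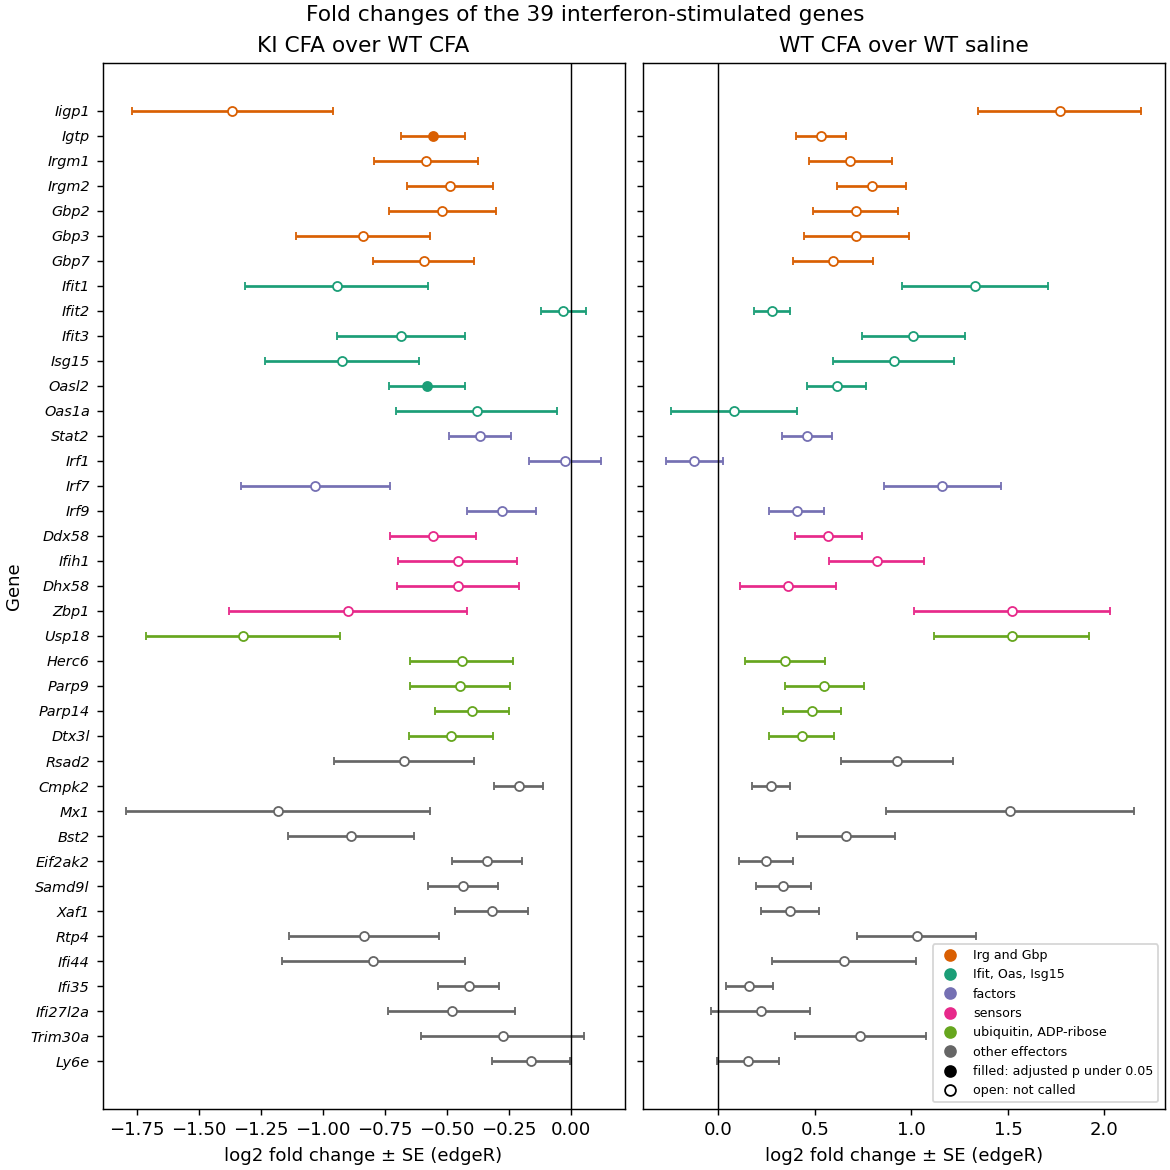
Log2 fold change ± SE (edgeR, 4 libraries per group) of the 39 genes in KI CFA over WT CFA (left) and in WT CFA over WT saline (right), coloured by role; filled points passed an adjusted p under 0.05. All points on the left lie below 0 and only Igtp and Oasl2 are filled, and on the right Irf1 alone lies below 0.

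Igtp, an immunity-related GTPase (Entrez 16145, chr11:58199556-58207592, build GRCm38.p6), had 20.0, 15.8, 17.4 and 21.0 CPM in KI CFA, against 22.4, 36.2, 28.5 and 22.0 CPM in WT CFA. All KI CFA libraries lay below all WT CFA libraries, and WT CFA 1 and 4 were close to the highest KI CFA library. KI saline had 16.9, 18.3, 16.2 and 17.8 CPM and WT saline 21.1, 18.7, 17.7 and 17.9 CPM. The log2 fold change of KI CFA over WT CFA was -0.56 ± 0.13 (edgeR adjusted p = 0.0238). It was -0.39 without WT CFA 2 (edgeR adjusted p = 0.0924) and -0.26 without WT CFA 2 and 3 (edgeR adjusted p = 0.52). The call also ended without KI CFA 2, KI CFA 3 or WT CFA 3, and over all settings run the adjusted p was between 0.0025 (DESeq2) and 0.52. In the GENCODE annotation Igtp shares 162 exonic bases with its neighbour Irgm2 on the same strand, 8.01% of its exons. The RefSeq spans of these genes do not overlap, with Irgm2 at chr11:58214977-58222783. Whether the overlap touched the counts depends on the annotation used for counting, which is not given.

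Oasl2, a relative of the 2′-5′ oligoadenylate synthetases (Entrez 23962, chr5:114896926-114912245), had 53.0, 56.4, 57.7 and 49.5 CPM in KI CFA, against 60.5, 117, 82.6 and 63.9 CPM in WT CFA. The groups did not overlap. KI saline had 46.7, 64.9, 52.1 and 47.8 CPM, with KI saline 2 highest, and WT saline had 56.6, 53.6, 49.7 and 51.9 CPM. The log2 fold change of KI CFA over WT CFA was -0.58 ± 0.15 (edgeR adjusted p = 0.0469). It was -0.35 without WT CFA 2 (edgeR adjusted p = 0.161), and leaving out any library other than KI saline 2, WT CFA 1, WT CFA 4 or WT saline 4 ended the call. Over all settings run its adjusted p was between 0.0173 and 0.749. A fit of only the KI CFA and WT CFA libraries called neither Igtp nor Oasl2 (edgeR adjusted p = 0.054 and 0.0685) and called Ifi35 instead (-0.41). With the skeletal muscle score as a covariate no member was called, and Igtp stood at -0.52 (edgeR adjusted p = 0.0568) and Oasl2 at -0.52 (edgeR adjusted p = 0.125).

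**Figure D4:**
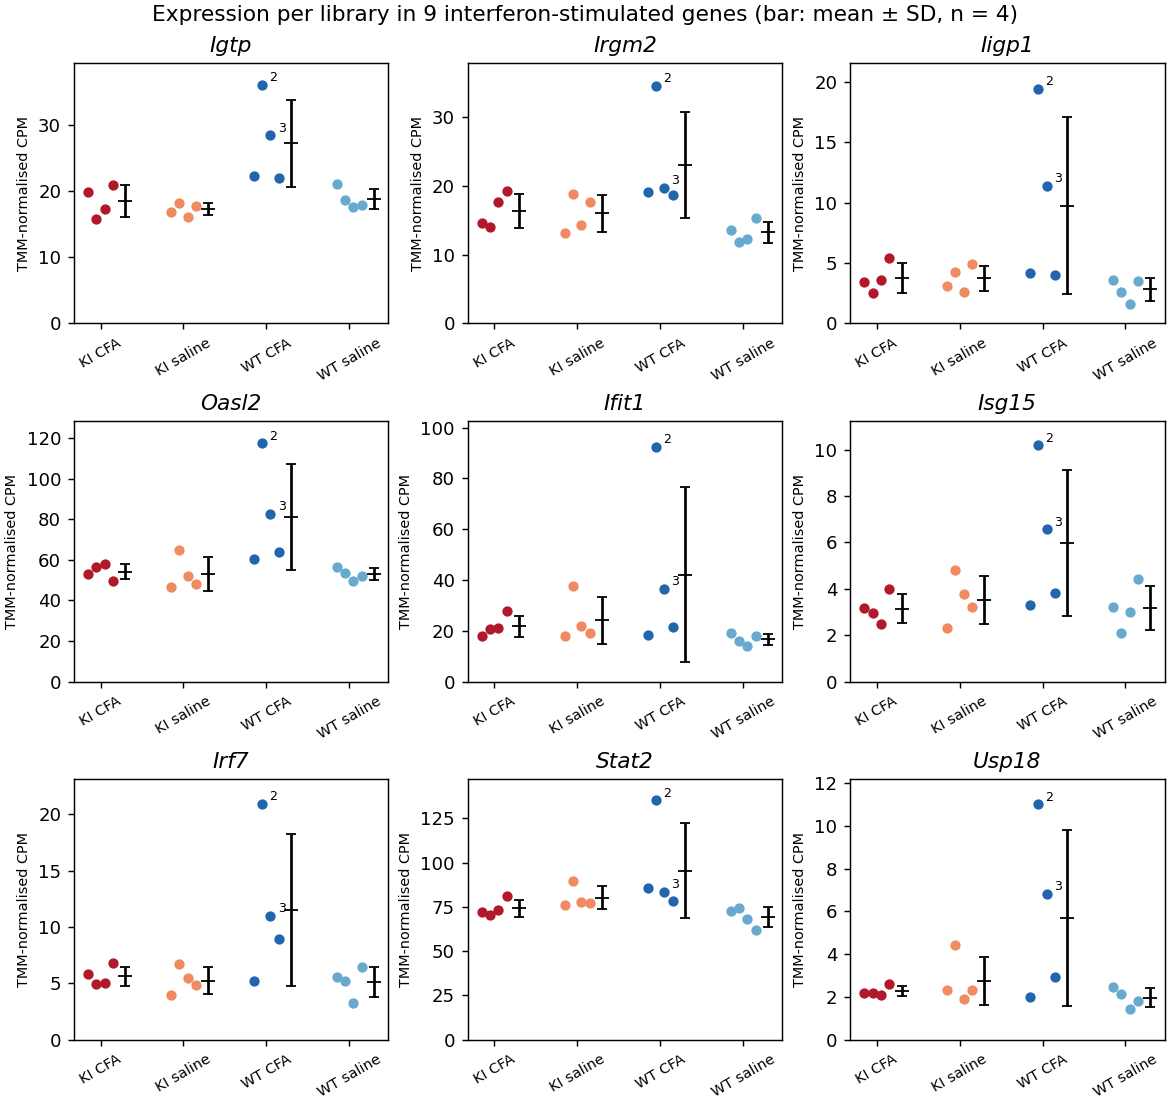
TMM-normalised CPM in each library (points) with the group mean ± SD (bars, n = 4) for 9 of the genes, in KI CFA, KI saline, WT CFA and WT saline; points of WT CFA 2 and 3 are numbered. WT CFA 2 is the highest point in every panel, at 36.2 CPM in Igtp and 117 CPM in Oasl2, and WT CFA 1 and 4 lie nearer to the other groups.

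Among the other Irg and Gbp genes, Iigp1 stood highest in WT CFA 2 as a multiple of the WT saline mean. This GTPase had 3.40, 2.56, 3.61 and 5.43 CPM in KI CFA, against 4.14, 19.4, 11.4 and 4.04 CPM in WT CFA. KI saline ran from 2.63 to 4.90 CPM, and WT saline had 3.61, 2.59, 1.61 and 3.53 CPM, below every WT CFA library. WT CFA 2 was 6.85 times and WT CFA 3 was 4.01 times the WT saline mean, against 1.46 and 1.42 times in WT CFA 1 and 4. The log2 fold changes were -1.37 ± 0.41 in KI CFA over WT CFA (edgeR adjusted p = 0.0885) and 1.77 ± 0.42 in WT CFA over WT saline (edgeR adjusted p = 0.456).

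Irgm2, which regulates other GTPases of its family, had 14.6, 14.0, 17.7 and 19.2 CPM in KI CFA, against 19.1, 34.6, 19.7 and 18.6 CPM in WT CFA. Only WT CFA 2 stood apart there, and the highest KI CFA library lay above WT CFA 1 and 4 and just below WT CFA 3. WT saline had 13.6, 11.9, 12.2 and 15.3 CPM, all below WT CFA, with a log2 fold change of 0.79 ± 0.18 in WT CFA over WT saline (edgeR adjusted p = 0.456). Gbp3 and Gbp7, guanylate-binding proteins, averaged 8.92 ± 1.49 and 15.4 ± 2.23 CPM in KI CFA, against 16.0 ± 8.10 and 23.3 ± 10.1 CPM in WT CFA (SD, n = 4). Their WT CFA 2 values were 27.2 and 38.4 CPM, and the other WT CFA libraries reached at most 16.6 CPM in Gbp3 and 20.0 CPM in Gbp7. Gbp7 shares 637 exonic bases with a pseudogene on the same strand, 11.3% of its exons. Irgm1 and Gbp2 had 20.1 and 21.6 CPM in WT CFA 2, against 6.31 to 11.8 CPM and 7.68 to 16.7 CPM in the other 15 libraries.

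Among the type I members, Ifit1 stood highest in WT CFA 2 as a multiple of the WT saline mean. This gene, whose product binds viral RNA that lacks the host cap, had 17.9, 20.5, 21.1 and 27.7 CPM in KI CFA, against 18.4, 92.5, 36.4 and 21.3 CPM in WT CFA. KI saline had 17.9, 37.8, 21.9 and 19.1 CPM and WT saline 19.0, 15.9, 14.1 and 17.9 CPM. WT CFA 2 was 5.53 times the WT saline mean, and WT CFA 1 and 4 lay within the KI CFA range. The fold change of KI CFA over WT CFA was -0.94 ± 0.37 (edgeR adjusted p = 0.25), and it was 0.14 without WT CFA 2 and 3.

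Ifit3 and Isg15 had the same order of libraries. Ifit3 had 7.29, 8.34, 9.07 and 9.34 CPM in KI CFA, against 7.35, 25.6, 12.2 and 9.77 CPM in WT CFA. Isg15, the ubiquitin-like modifier (chr4:156199424-156200818), had 3.15, 2.93, 2.47 and 3.98 CPM in KI CFA, against 3.31, 10.2, 6.56 and 3.83 CPM in WT CFA. In both genes the KI CFA range overlapped WT CFA 1, 4 or both. Ifit3 has a near-identical neighbour, Ifit3b, so its counts depend on how shared reads were assigned. Isg15 in KI CFA over WT CFA was at -0.92 ± 0.31 (edgeR adjusted p = 0.15).

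Ifit2 had the same order within a narrow range, and Oas1a departed from it. Ifit2, another Ifit gene, had 34.0, 36.4, 40.5 and 40.9 CPM in KI CFA, against 32.6, 46.4, 39.8 and 36.4 CPM in WT CFA, and the groups overlapped. It had 38.8, 39.6, 35.2 and 35.5 CPM in KI saline, against 34.3, 31.9, 32.5 and 29.3 CPM in WT saline. Oas1a, an oligoadenylate synthetase with near-identical relatives in its cluster, had 0.713 to 1.34 CPM in KI CFA, against 0.668, 1.55, 1.75 and 1.27 CPM in WT CFA. Its fold change was -0.38 ± 0.32 (edgeR adjusted p = 0.751), and it had 16 to 49 reads in a library. Among the type I members only Ifit1 had a wider error (0.37).

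Irf7, the factor that amplifies type I interferon production, had 5.79, 4.89, 5.02 and 6.76 CPM in KI CFA, against 5.15, 20.9, 11.0 and 8.96 CPM in WT CFA. WT CFA 1 lay within the KI CFA range and the other 3 above it. The fold change was -1.03 ± 0.30 (edgeR adjusted p = 0.0797). Stat2, the subunit specific to type I signalling, had 71.9, 70.4, 73.0 and 81.0 CPM in KI CFA, against 85.5, 135, 83.3 and 78.1 CPM in WT CFA. KI saline had 75.9, 89.9, 77.6 and 77.2 CPM, against 72.9, 74.4, 68.2 and 62.0 CPM in WT saline, and all WT CFA libraries also lay above WT saline. Irf9, the DNA-binding subunit beside Stat2, had 29.9 CPM in WT CFA 2 and 14.7 to 20.4 CPM in the other 15 libraries. Irf1, the factor of the gamma pathway, had 13.7, 13.6, 16.9 and 16.4 CPM in KI CFA, against 13.0, 17.3, 14.6 and 16.7 CPM in WT CFA, with full overlap, and WT CFA 2 was 1.03 times the WT saline mean.

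The sensors of foreign nucleic acid were also highest in WT CFA 2. Ddx58 (RIG-I) had 25.0, 25.0, 26.0 and 29.2 CPM in KI CFA, against 29.4, 60.9, 37.0 and 27.7 CPM in WT CFA. Ifih1 (MDA5) had 10.1, 7.85, 10.1 and 9.76 CPM in KI CFA, against 8.34, 23.2, 10.9 and 9.40 CPM in WT CFA. In both genes WT CFA 2 was more than 2 times any KI CFA library, and WT CFA 1, 4 or both lay within the KI CFA range. Dhx58 (LGP2) and Zbp1, a sensor of Z-form nucleic acid, reached 6.01 and 4.31 CPM in WT CFA 2, against at most 3.24 and 1.52 CPM in the other libraries.

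Usp18, the protease that removes Isg15 and dampens the type I receptor, had 2.16, 2.16, 2.11 and 2.61 CPM in KI CFA, against 1.97, 11.0, 6.81 and 2.94 CPM in WT CFA. WT CFA 1 lay below all KI CFA libraries and the other 3 above them. The fold change was -1.32 ± 0.39 (edgeR adjusted p = 0.0878). Dtx3l, a ubiquitin ligase that partners Parp9, had 19.2, 16.6, 18.5 and 21.8 CPM in KI CFA, against 19.6, 37.6, 29.3 and 20.3 CPM in WT CFA. Dtx3l and Parp9 share 458 exonic bases on opposite strands, 8.0% and 9.4% of their exons, and the strand setting of the count is not given in the sources used here.

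Of the other effectors, Bst2 (tetherin, which holds budding virus at the membrane) had 8.78, 7.68, 8.01 and 8.16 CPM in KI CFA, against 9.67, 27.4, 12.0 and 11.4 CPM in WT CFA. The groups did not overlap, and the fold change of -0.89 ± 0.25 was not called (edgeR adjusted p = 0.0719). Ifi35 had 14.8, 13.4, 14.1 and 13.4 CPM in KI CFA, against 15.2, 21.2, 17.5 and 20.2 CPM in WT CFA, also without overlap, at -0.41 ± 0.12 (edgeR adjusted p = 0.0881). WT saline overlapped WT CFA in Ifi35, with 13.6, 15.5, 15.8 and 21.4 CPM. An antisense gene covers 290 exonic bases of Ifi35, 16.8% of its exons. Rtp4, a chaperone of receptor transport, had 4.17, 4.98, 4.73 and 5.71 CPM in KI CFA, against 4.55, 15.9, 9.62 and 5.04 CPM in WT CFA. Samd9l averaged 13.6 ± 1.71 CPM in KI CFA, against 18.4 ± 4.86 CPM in WT CFA (SD, n = 4). Mx1 had 2.80 and 2.03 CPM in WT CFA 2 and 3 and at most 1.16 CPM elsewhere. The members nearest to the WT saline mean in WT CFA 2 were Irf1 at 1.03 times, Oas1a at 1.25 times, Ifi35 at 1.28 times, Ifit2 at 1.45 times and Ly6e and Cmpk2 at 1.47 times.

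KI saline against WT saline compared the genotypes without joint inflammation. No member was called by edgeR, where 4.34% of all genes were, and DESeq2 and limma-voom also called no member. Of the 39, 3 had an unadjusted p under 0.05, which were Irf1 (-0.36), Ifit2 (0.22) and Ifi35 (-0.28), against 23.8% of all genes. The median log2 fold change was 0.09, with 30 members above 0. The groups did not overlap in 3 of 39 members (Ifit2, Stat2 and Parp14, higher in KI saline), against 14.6% of all genes. KI saline 2 was the highest KI saline library for Ifit1, Oasl2, Isg15, Usp18 and Stat2, with a median of 0.35 above WT saline over the 39 members.

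KI CFA against KI saline asked what joint inflammation does in the knock-in. No member was called by edgeR (0% of all genes), DESeq2 or limma-voom, and no member had an unadjusted p under 0.05, against 5.68% of all genes. The median log2 fold change was -0.06, with 15 members above 0 and 24 below, and the smallest adjusted p was 0.89. No member had groups that did not overlap, against 4.32% of all genes. Igtp averaged 18.5 ± 2.39 CPM in KI CFA, against 17.3 ± 0.925 CPM in KI saline (SD, n = 4), and Oasl2 averaged 54.2 ± 3.71 CPM in KI CFA, against 52.9 ± 8.34 CPM in KI saline.

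The interaction, which tests whether the CFA effect differs between KI and WT, called no member in edgeR (0% of all genes), DESeq2 or limma-voom. Of the 39, 23 had an unadjusted p under 0.05, all below 0, against 6.29% of all genes in either direction. The median was -0.64, and the smallest adjusted p was 0.718. The lowest p-values belonged to Parp14, an ADP-ribosyltransferase (-0.70 ± 0.21), Stat2 (-0.57 ± 0.18), Usp18 (-1.81 ± 0.57) and Irgm2 (-0.76 ± 0.25). Without WT CFA 2 the median was -0.32, and without WT CFA 2 and 3 it was -0.21 with 35 of 39 below 0. A genotype difference in the CFA effect on these genes was therefore not shown at this threshold.

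The rest of the pathway was read from lists chosen by role. Of 6 interferon receptor genes, Ifngr2, a chain of the interferon-gamma receptor, fell in KI saline against WT saline (-0.27 ± 0.07, edgeR adjusted p = 0.0375). In that comparison 4.34% of all genes were called. Ifngr2 averaged 69.9 ± 1.34 CPM in KI saline, against 84.1 ± 5.48 CPM in WT saline, and 75.1 ± 5.22 CPM in KI CFA, against 80.4 ± 7.99 CPM in WT CFA (SD, n = 4). The other 5 receptors, the 12 signalling genes and the 8 inhibitors were not called in any of the 5 comparisons. Among the inhibitors, Socs1, which blocks the Jak kinases, was at -0.88 ± 0.34 in KI CFA over WT CFA (edgeR adjusted p = 0.253).

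Of 52 tested genes on the list of other interferon-stimulated genes, 36 were highest in WT CFA 2, and WT CFA 2 was first and WT CFA 3 second of the WT CFA group in 22. Their median log2 fold change was -0.34 in KI CFA over WT CFA, with 48 of 52 below 0 and none called, and 0.41 in WT CFA over WT saline, with 49 of 52 above 0 and none called. Without WT CFA 2 these medians were -0.08 and 0.13, over the 54 genes of the list tested in that fit. Ifi203, which codes for a protein with a HIN domain, rose in KI saline against WT saline (0.73 ± 0.20, edgeR adjusted p = 0.0479), with 5.18 ± 0.771 CPM in KI saline, against 3.12 ± 0.522 CPM in WT saline (SD, n = 4). It was the only call among the 52 there, against 4.34% of all genes. The chemokine gene Cxcl10 did not follow the order of the members, with 3.35 CPM in WT CFA 2, 5.56 CPM in WT CFA 3 and 1.22 to 4.23 CPM in the other libraries.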

How the data were processed

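RNA was sequenced from pooled lumbar dorsal root ganglia in 16 libraries, 4 in each of 4 groups taken from the sample titles. The deposited values are raw counts of reads per gene, which the authors did not normalize. The submitters' processing notes name the build mm10 and, with no settings, HTSeq 0.6.1p1, TopHat2 2.1.1, SAMtools 1.5, Bowtie2 2.3.5.1, FastQC and bcl2fastq 2.20. The strand mode and the annotation are not given in the sources used here. Per the labels' protocols, libraries were poly-A selected and amplified by PCR, and they do not tie libraries to sequencing lanes, so no batch could be tested. Read counts without molecular identifiers cover counting error only. Library totals include 28 rows without an identifier, which held 0.192% of reads.

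Counts were tested with edgeR 4.0.16 (R 4.3.3), by its quasi-likelihood test on group means of all 16 libraries with TMM factors and filterByExpr (15507 genes, common biological coefficient of variation 11.8%). Calls required an adjusted p under 0.05 (Benjamini-Hochberg over every gene tested). Log2 fold changes are ± SE, CPM are TMM-normalised, and log2 CPM used a prior count of 2. On simulated counts of the KI CFA and WT CFA comparison (15396 genes), edgeR called 92% of 200 genes changed 2-fold. The simulation gave every gene the same coefficient of variation, so this share does not hold for members that varied more between libraries. Iigp1 (-1.37 ± 0.41) and Usp18 (-1.32 ± 0.39) lay beyond 2-fold in KI CFA over WT CFA and were not called. Within each group, libraries differed by more than counting error (chi-square per degree of freedom at least 4.43), so each counts as 1 replicate. Positions and promoters came from RefSeq tables of build GRCm38.p6, and all 39 members matched a locus. Exon lengths and exon overlaps came from the GENCODE annotation, which can differ from the RefSeq spans.

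The members and all lists were chosen with earlier results of these data known. Values are given for up to 5 members per role group with the smallest p in KI CFA against WT CFA. Irgm1, Gbp2, Ifit2, Irf1, Irf9, Dhx58, Zbp1, Parp14, Mx1, Ly6e, Cmpk2, Ifi203, Socs1 and Cxcl10 were named after their values were seen. Some results are not reported here. Alternatives were relative log expression size factors, library totals, no filter and a filter of 1 CPM in 4 libraries. Other tools were DESeq2 1.42.0 and limma-voom with sample quality weights (limma 3.58.1), called limma-voom throughout. Further settings were only the groups compared, a replicate block, a skeletal muscle covariate, each library left out, and WT CFA 2 and 3 left out together.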

Additional observations from a re-analysis of the deposited data

Results flagged for a closer look

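In each group of 4 libraries, a value was marked where its gap to the nearest library, divided by the range of the group, passed Dixon's 95% critical value. Of 108 sets of 4 values tested, 12 were marked. Chance alone marks about 1 in 20 independent sets. The sets here share genes and libraries and were partly chosen by p, so the 12 cannot be set against that rate. In WT CFA 2 the marked values were Irgm2 at 34.6 CPM, Gbp7 at 38.4 CPM, Stat2 at 135 CPM and Bst2 at 27.4 CPM, all far above the other WT CFA libraries. In KI saline 2 they were Stat2 at 89.9 CPM, Ddx58 at 33.2 CPM, Usp18 at 4.43 CPM and the mean log2 CPM of the ubiquitin and ADP-ribose genes at 3.37, all above the other KI saline libraries. In KI CFA, Usp18 was high in KI CFA 4 (2.61 CPM) and Ifih1 was low in KI CFA 2 (7.85 CPM). In WT saline, Gbp3 was high in WT saline 4 (13.4 CPM) and Gbp7 was low in WT saline 2 (13.6 CPM).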

How the results depend on the processing

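The count of called members in KI CFA against WT CFA was 2 and changed with most settings. It was 1 with relative log expression size factors, limma-voom, only the groups compared or the replicate block, 5 with DESeq2 (adding Ddx58, Usp18 and Ifi35), and 0 with the muscle covariate or without WT CFA 2 and 3. Leaving out 1 library gave 0 to 7, with 0 without KI CFA 2, KI CFA 3, WT CFA 2 or WT CFA 3, 7 without WT CFA 1, 5 without WT CFA 4 and 4 without WT saline 4. The cause was not tested. Called members in WT CFA against WT saline were 3 with DESeq2 and 0 in all other settings run, and in the other comparisons 0 in every setting run. All genes called in KI CFA against WT CFA were 441, with 663 by DESeq2, 133 without WT CFA 2 and 3 and 241 to 652 without 1 library. For KI saline against WT saline they were 673, with 1487 by DESeq2, 214 with only the groups compared, 297 with the muscle covariate and 284 to 905 without 1 library. For KI CFA against KI saline they were 0, with 15 by DESeq2, 1 with only the groups compared and 53 without KI saline 2. In KI CFA against WT CFA without WT CFA 2 and 3, 10 of the 39 members turned to above 0, among the 20 named by rule Ifit1 (0.14), Ifih1 (0.093), Oas1a (0.048) and Rtp4 (0.034). In WT CFA against WT saline Oas1a turned to -0.0084 without WT CFA 2, -0.084 without WT CFA 3, -0.040 without WT saline 1, -0.050 without WT saline 2 and -0.35 without WT CFA 2 and 3, and without single libraries it ran from -0.084 to 0.30. The named genes kept direction and side of the threshold in 989 values, and 25 lost a call, 17 gained one and 9 turned. Same-numbered libraries of different groups did not deviate together (correlations from -0.21 to 0.13, 3 of 24 over 0.1, 2 of 16 libraries closest to their own number), so the replicate block pairs by number only. It left 1 call, Oasl2 (adjusted p = 0.0238), with Igtp at adjusted p = 0.0503.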
